A study of Caenorhabditis elegans with 4 samples.

Results

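The NURF-1 peaks of chromosome III were examined in the nematode Caenorhabditis elegans. They are the rows of the series-wide ChIP-seq peak list that lie on chromosome III, 1448 of 7512 peaks in all (19.3%). Chromatin came from L3 larvae of N2, the wild-type strain, with males and hermaphrodites mixed and the cultures kept at 20 °C. NURF-1 was immunoprecipitated with SDQ3525, an affinity-purified rabbit polyclonal antibody. The groups were 2 NURF-1 ChIP samples and 2 input DNA samples. Only the ChIP samples have a peak list here, and the labels do not say whether the replicates came from separate cultures. Whole larvae were used, so a peak does not show which cells carried the protein.

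NURF-1 is the worm counterpart of mammalian BPTF and the biggest subunit of NURF, a chromatin remodelling complex. NURF uses an ISWI-type ATPase to slide nucleosomes along DNA, and NURF complexes are generally found at promoters and other open chromatin. Worm autosomes are organised into a gene-rich centre with low recombination, flanked by 2 arms that are richer in repeats and in silenced chromatin marks. Chromosome III was therefore described in 3 sections. The left arm was the first 25% of the chromosome (bases 1 to 3445925), the centre the middle 50% (3445926 to 10337775) and the right arm the last 25% (10337776 to 13783700). A peak was placed by its midpoint, and coordinates are on WormBase WS220. The other autosomes (I, II, IV and V) served as background.

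The peaks of chromosome III were focal and many. In the series-wide list they ranged from 146 to 4758 bp in width, with a median of 397 bp, and covered 722055 bp or 5.24% of the chromosome. Replicate 1 had 1186 peaks there (4.08% of the chromosome) and replicate 2 had 1047 (3.32%). Each peak carries the authors' score, whose scale is not given in the sources used here. On chromosome III it ran from 1.32 to 252 in the series-wide list, with a median of 13.3. Peaks scored above the median of the whole series-wide list (12.85) are called higher-scored and the others lower-scored. By that division 737 peaks of chromosome III (50.9%) were higher-scored.

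The sections of chromosome III carried different numbers of peaks, and the left arm carried the fewest per megabase in every list. The series-wide list had 284 peaks in the left arm, 750 in the centre and 414 in the right arm. These are 82.4, 109 and 120 peaks per Mb. Replicate 1 had 66.7 peaks per Mb in the left arm, 93.0 in the centre and 91.4 in the right arm. Replicate 2 had 58.0, 86.2 and 73.4 in the same order. The right arm was thus the densest section in the series-wide list, whereas in each replicate's own list the centre was. The right arm held 1.46 times the density of the left arm in the series-wide list, 1.37 times in replicate 1 and 1.26 times in replicate 2. No test was made, since the chromosome gives 1 value per list and peaks of a chromosome are not replicates.

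**Figure D1:**
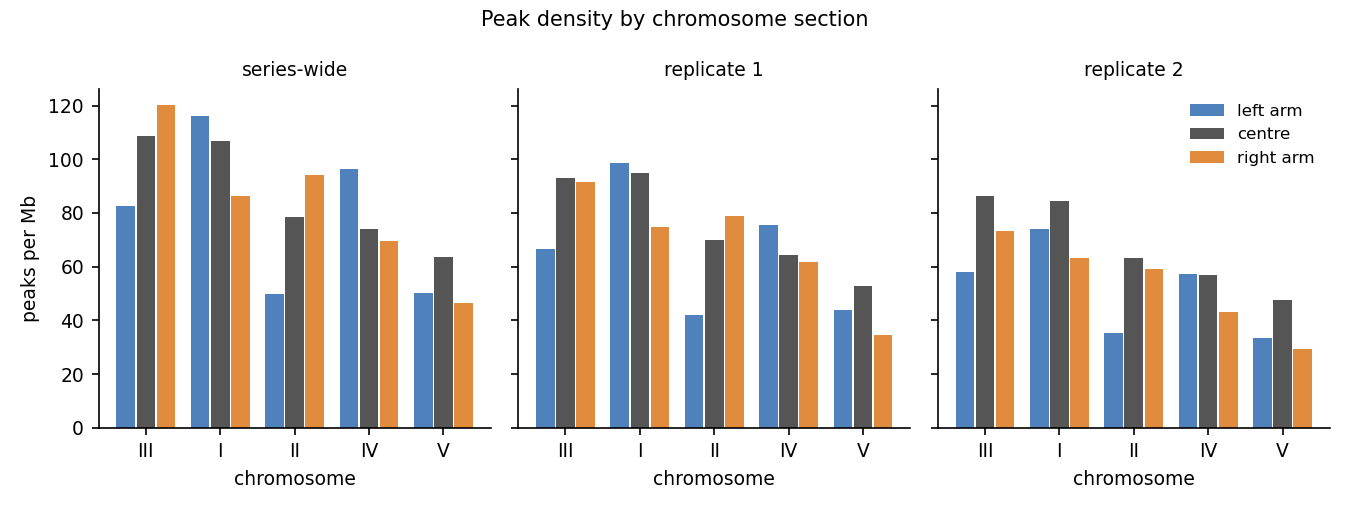
Peaks per Mb (vertical axis) in the left arm, centre and right arm of chromosome III and of the other autosomes, for the series-wide list and both ChIP replicates. Each bar is 1 value without error; the right arm of III is above every other right arm in the 3 panels.

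Strong and replicated peaks followed another order from the full list, with most of them per megabase in the centre. Higher-scored peaks numbered 63.8 per Mb in the centre and 43.1 in the arms, a ratio of 1.48. Lower-scored peaks numbered 45.0 per Mb in the centre and 58.2 in the arms, a ratio of 0.773. In the replicates' own lists, divided at each list's median score, the ratio for lower-scored peaks was 0.898 in replicate 1 and 1.05 in replicate 2, so its direction turned in replicate 2. The ratio for higher-scored peaks was 1.504 in replicate 1 and 1.63 in replicate 2. In the series-wide list I, II, IV and V had ratios of 1.38, 1.37, 1.17 and 1.66 for higher-scored peaks. For lower-scored peaks they had 0.797, 0.861, 0.692 and 1.07. The centre's excess of higher-scored peaks over the pooled arms was thus seen on every autosome. On I, II, III and V the centre was also above each single arm. On IV it had 41.3 higher-scored peaks per Mb, against 41.4 in the left arm and 29.3 in the right arm. Peaks of III that overlapped a peak of both replicates by at least 1 bp were then counted. They numbered 41.8 per Mb in the left arm, 71.1 in the centre and 61.5 in the right arm. Peaks that overlapped a peak of neither replicate numbered 16.0, 13.9 and 31.1 per Mb in the same order. The right arm thus had 1.95 times the density of such unreplicated peaks that the left arm had, and 1.47 times its density of peaks in both replicates. Both ratios were larger on II, at 2.54 and 1.76. They were 0.778 and 0.909 on I, 0.567 and 0.758 on IV, and 1.59 and 0.755 on V.

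Over its whole length, chromosome III had 105 series-wide peaks per Mb, against 55.9 to 104 on I, II, IV and V. It was below chromosome I in replicate 1 (86.0 against 90.8) and in replicate 2 (75.96 against 76.5), and above II, IV and V in all 3 lists. Against the other autosomes, the right arm of chromosome III was above their range in all 3 lists. It had 120 series-wide peaks per Mb, against 46.5 to 94.2 in the right arms of I, II, IV and V. In replicate 1 it had 91.4, against 34.6 to 78.8, and in replicate 2 73.4, against 29.2 to 63.2. Its peaks in both replicates were above the range too, at 61.5 per Mb against 20.6 to 52.8. The left arm of III, with 82.4 peaks per Mb, lay inside the range of 49.7 to 116. The centre, with 109 peaks per Mb, was just above the highest of the others (107, chromosome I) in the series-wide list. In replicate 1 it was below chromosome I (93.0 against 95.01) and in replicate 2 above it (86.2 against 84.4). A right arm denser than the left arm was also seen on chromosome II (right over left ratio 1.89), while on I, IV and V the ratio was 0.742, 0.722 and 0.924.

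Along the chromosome, density varied over short distances. The first 3 full megabases held 75, 81 and 81 series-wide peaks. The sixth, from 5000001 to 6000000, held 130, the highest of the 13. The seventh held 92, and the thirteenth held 126. In 137 windows of 100 kb the number of peaks ran from 2 to 23, with a median of 11. Windows of the other autosomes had a median of 7. Counts per window in the replicates had a Spearman's rho of 0.88 and a Pearson's r of 0.88 across the 137 windows. This describes windows along a single chromosome, which share their libraries and are not independent.

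**Figure D2:**
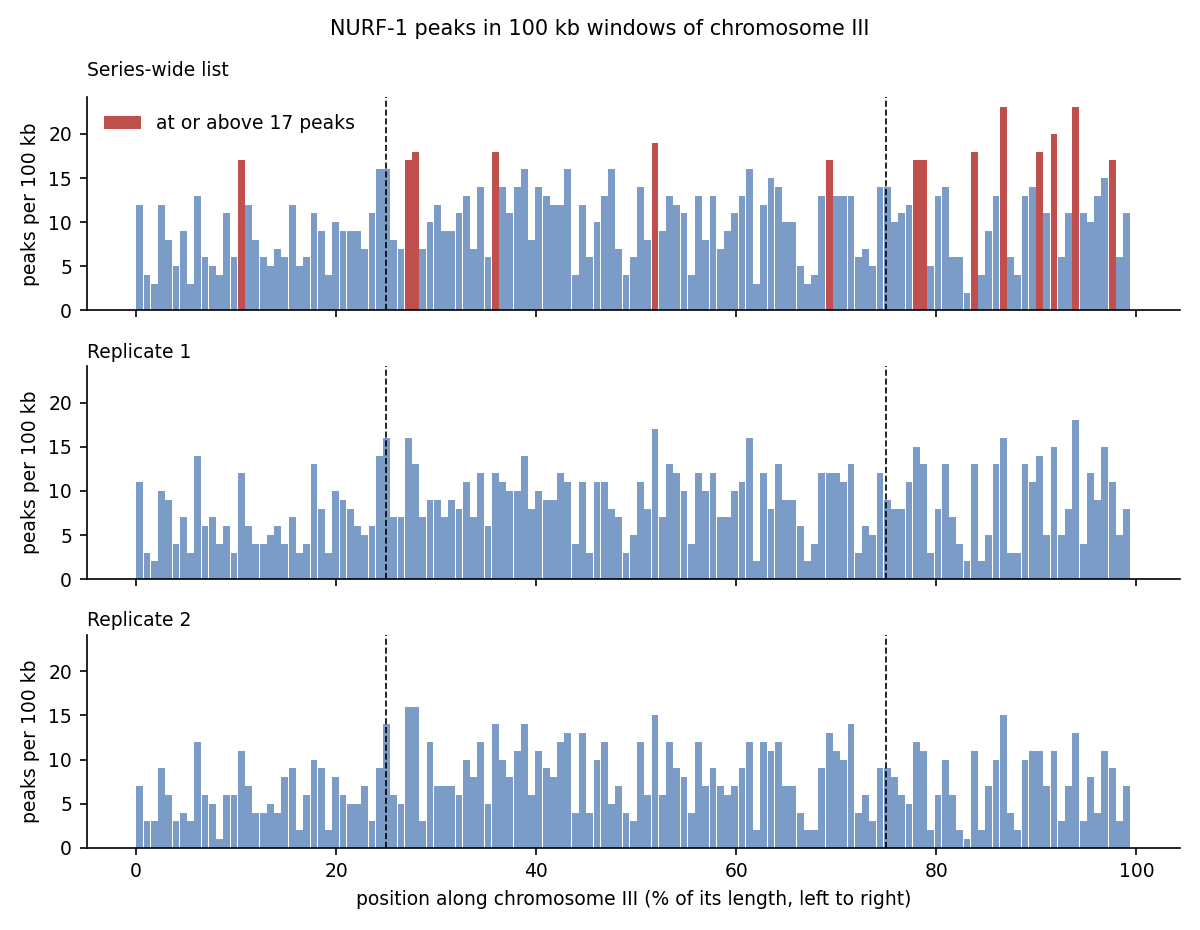
Number of NURF-1 peaks (vertical axis) in 100 kb windows along chromosome III (horizontal axis, percent of its length) for the series-wide list and both replicates. Dashed lines separate the left arm, centre and right arm; windows with 17 or more series-wide peaks are red, and 8 of these 14 lie in the right arm.

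Dense stretches were few in the left arm. Whether the right arm or the centre had the larger share of dense windows depended on the peaks counted. A window was called dense when it held at least 17 series-wide peaks, the 95th percentile of the windows of I, II, IV and V. On III, 14 of 137 windows (10.2%) were dense, against 5.26% of 685 windows of the other autosomes. Of these 14, 1 lay in the left arm, 5 in the centre and 8 in the right arm, which had 34, 69 and 34 windows. With windows shifted by 50 kb the threshold was 16 peaks and 24 windows (17.5%, against 5.99% of the others) were dense, 2 in the left arm, 14 in the centre and 8 in the right arm. Counting only peaks in both replicates, with a threshold of 10, made 21 windows dense (15.3%, against 6.57% of the others), 1 in the left arm, 15 in the centre and 5 in the right arm. By replicated peaks the share of dense windows was thus 21.7% in the centre and 14.7% in the right arm, against 7.25% and 23.5% by all series-wide peaks. With shifted windows it was 20.3% in the centre and 23.5% in the right arm, so the right arm kept the higher share there. By all series-wide peaks in unshifted windows, the share on the single autosomes was 12.7% on I, 2.63% on II, 6.90% on IV and 0.478% on V. Chromosome III was therefore inside their range.

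The densest windows by all series-wide peaks were at 11900001 to 12000000 and at 12900001 to 13000000, both in the right arm, with 23 series-wide peaks each. The first held 16 peaks in replicate 1 and 15 in replicate 2. The second held 18 in replicate 1 and 13 in replicate 2. The window at 12600001 to 12700000 in the right arm held 20 series-wide peaks, with 15 in replicate 1 and 11 in replicate 2. The window at 7100001 to 7200000, in the centre, held 19 series-wide peaks, and 15 of them were in both replicates. A further 4 windows held 18 peaks each. Over the 14 dense windows, replicate 1 had 11 to 18 peaks and replicate 2 had 9 to 16. Of the series-wide peaks in them, 61.0% were in both replicates, close to the 58.4% over all peaks of III.

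Spacing was mixed, with short gaps inside groups of peaks and long gaps between them. A gap is the distance from the end of a peak to the start of the next and is assigned to the section of its left-hand peak. The median gap was 5604 bp in the left arm, 4474 bp in the centre and 3099 bp in the right arm. The middle 50% of gaps ran from 877 to 17831 bp in the left arm, from 1254 to 11003 bp in the centre and from 894 to 8699 bp in the right arm. Over the whole chromosome 502 of 1447 gaps (34.7%) were under 2000 bp, against 33.3% of gaps on the other autosomes. By section the share was 35.6% in the left arm, 31.3% in the centre and 40.2% in the right arm. The left arm thus had both the lowest lower quartile and the highest upper quartile of gap length. In replicate 2's own list the median gap of the right arm (6164 bp) was longer than that of the centre (5874 bp), so the order of these sections depended on the list.

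**Figure D3:**
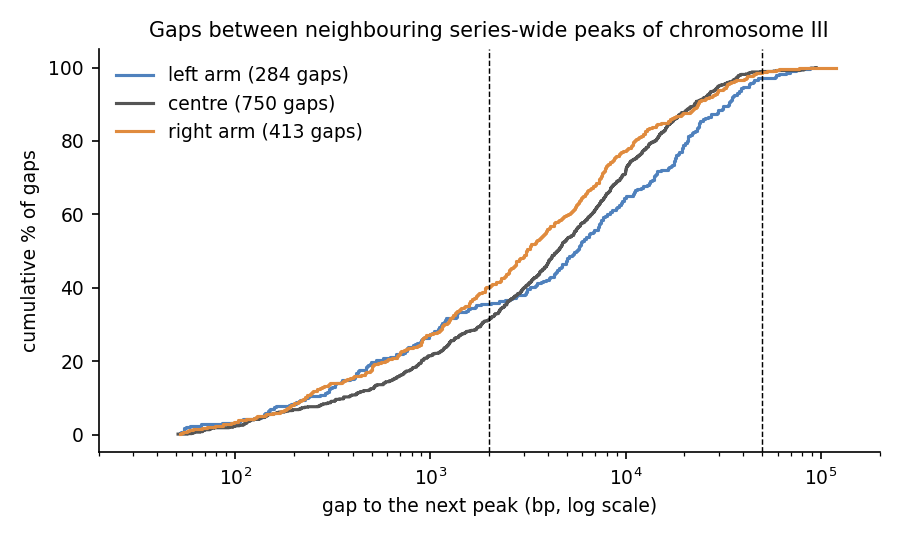
Cumulative percent of gaps (vertical axis) up to a given length (horizontal axis, bp, log scale) for series-wide peaks of chromosome III, by section. Dashed lines mark 2000 bp and 50000 bp, and the left arm has the longest median gap, 5604 bp.

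Runs of close peaks were found in all 3 sections. With peaks under 2000 bp apart joined, 652 of the 1448 peaks (45.0%) stood alone, and 796 fell into 294 runs of at least 2. The lone share was 43.9% to 53.2% on the other autosomes. Chromosome III had 23 runs of 5 or more peaks, which held 135 peaks (9.32% of its list, against 7.66% to 12.6% on the others). They were 3 in the left arm, 11 in the centre and 9 in the right arm. Of the 135 peaks in them, 53 were higher-scored (39.3%, against 50.9% of all peaks of III) and 73 were in both replicates (54.1%, against 58.4%).

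The longest run had almost no replicate support. It lay in the centre at 6566962 to 6573181 and comprised 10 peaks of 155 to 539 bp, separated by 110 to 675 bp. Their scores were 1.99 to 6.78. None of the 10 was in both replicates, 3 were in replicate 1 alone and 7 in neither. A run of 5 peaks near the right end, at 13717397 to 13721386, scored 2.85 to 5.91, and all 5 were in neither replicate. These are the 2 runs with no peak in both replicates. Such runs numbered 2 of 23 on I, 0 of 11 on II, 3 of 30 on IV and 2 of 16 on V.

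Most long runs mixed higher-scored and lower-scored peaks, with at least 1 higher-scored peak in 20 of the 23. The longest of the right arm, at 12218339 to 12228134, comprised 8 peaks scored 3.07 to 107 over 9796 bp. Of these 6 were in both replicates and 2 in replicate 1 alone. The longest of the left arm, at 1427303 to 1432187, comprised 6 peaks scored 3.81 to 14.5. Only 1 of them was in both replicates, 2 were in replicate 2 alone and 3 in neither. A second run of 6 peaks in the left arm, at 62583 to 67249, was shorter in span and had 3 peaks in both replicates.

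Long empty stretches were few. Chromosome III had 22 gaps of 50 kb or more, 1.52% of its gaps, against 4.85% on the other autosomes together. The single chromosomes had 2.04% on I, 4.79% on II, 5.32% on IV and 8.13% on V, so III was the lowest of the 5. This was so in each replicate's list too, at 2.70% on III against 2.85% to 11.4% in replicate 1, and 4.02% against 4.08% to 14.1% in replicate 2. The margin to chromosome I was small in both. Together the series-wide stretches took up 11.6% of III, against 15.5% to 39.0% of the others. There were 8 in the left arm, 8 in the centre and 6 in the right arm, which is 16.1%, 9.04% and 12.1% of these sections. No window of 100 kb was empty on III, against 14 of 685 windows on the others, 12 of which lay on V. Chromosome II had 0 as well, and I and IV had 1 each.

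The longest empty stretch, 119 kb, lay in the right arm at 11344390 to 11463712, between 2 lower-scored peaks that were each in a single replicate. The next were at 9957107 to 10051618 (94.5 kb) and 3541335 to 3630159 (88.8 kb), both in the centre, and at 1962991 to 2050571 (87.6 kb) in the left arm. The left border of the stretch in the left arm was a peak scored 214, ranked 11 in the whole list. Another, at 9145505 to 9228094 (82.6 kb) in the centre, held 1 peak of replicate 1 that the series-wide list lacks. Of the 22 stretches, 20 held no peak of either replicate. Of their 44 flanking positions, 22 (50%) were peaks in both replicates, against 58.4% over all peaks of III.

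Peak width followed the same division into centre and arms. The median width of series-wide peaks was 296 bp in the left arm, 472 bp in the centre and 310 bp in the right arm. The centre was widest in replicate 1 as well (439 bp, against 336 and 363 bp in the left and right arms) and in replicate 2 (396 bp, against 318 and 340 bp). The difference came with the share of strong peaks: 58.7% of centre peaks were higher-scored, 42.3% in the left arm and 42.8% in the right arm. Among higher-scored peaks alone the medians were 682 bp in the left arm, 670 bp in the centre and 622 bp in the right arm, and among lower-scored peaks 208, 232 and 208 bp. On the other autosomes the median width was 293 to 351 bp in left arms, 396 to 482 bp in centres and 305 to 371 bp in right arms, and III lay inside each range. In replicate 1 III was above the range in all 3 sections, with 336 bp against 294 to 324 bp in left arms, 439 bp against 419 to 426 bp in centres and 363 bp against 282 to 354 bp in right arms. In replicate 2 it lay inside each range. When peaks under 200 bp were left out, the left arm's median (457 bp) was above the right arm's (427 bp). The order of the arms also changed with 3 sections of equal length (348 bp on the left, 334 bp on the right). Across the 1448 peaks, width and score had a Spearman's rho of 0.80, given as a description across peaks of 1 list.

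In the series-wide list the left arm had the largest share of wide peaks on III, though it had the fewest peaks in all. Peaks of 1 kb or more made up 10.2% of the left arm (29 of 284), 8% of the centre (60 of 750) and 6.28% of the right arm (26 of 414), against 8.21% of all peaks on the other autosomes. Left arms of I, II, IV and V had 4.99% to 7.08%. In replicate 1 the left arm of III had 9.57%, against 4.35% to 6.25%, but in replicate 2 it had 4.50%, inside the range of 2.30% to 5.93%. The widest peak of the chromosome covered 4758 bp at 2497053 to 2501810 in the left arm. It scored 24.1, and was split into 4 peaks in replicate 1 and 5 in replicate 2. The next widest were also in the left arm, at 1018005 to 1020630 (2626 bp, score 24.7) and at 2077670 to 2080266 (2597 bp, score 11.4). The others of the 5 widest lay in the centre, at 9052514 to 9055035 (2522 bp, score 107) and at 7709739 to 7712238 (2500 bp, score 69.8). None of these 5 was among the 10 highest-scored peaks.

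**Figure D4:**
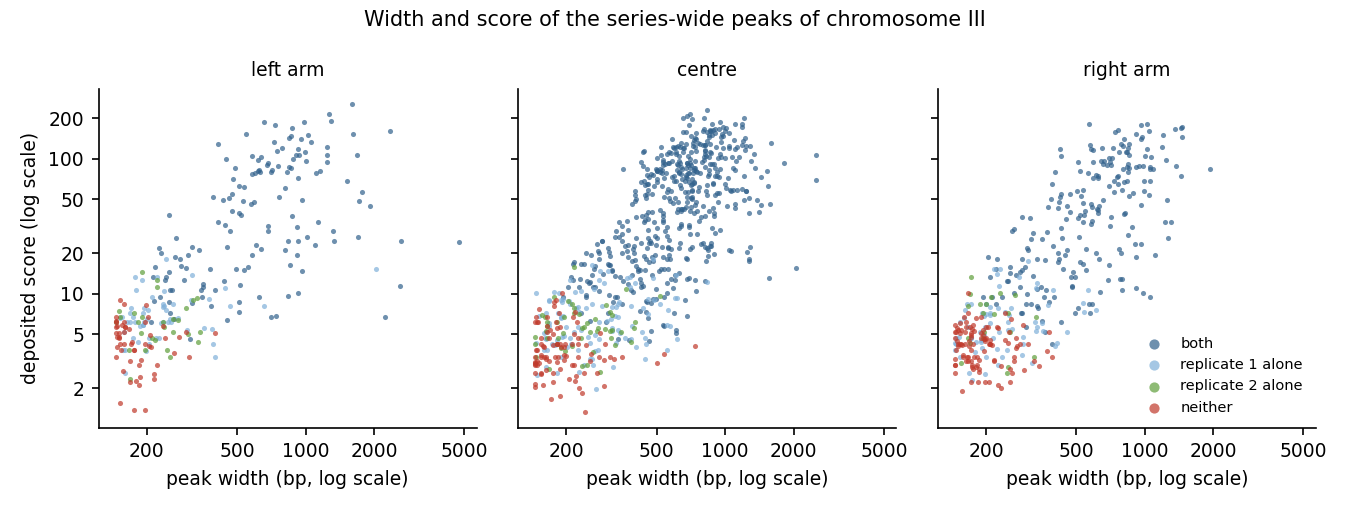
Deposited score (vertical axis, log scale) against width (horizontal axis, bp, log scale) of the 1448 series-wide peaks of chromosome III, a point per peak, coloured by the replicates it overlaps. Peaks in neither replicate score 10.1 or less, and the 3 widest peaks of the left arm score between 11.4 and 24.7.

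Replicate support was higher in the centre than in the arms. Of the 1448 peaks, 846 overlapped a peak of both replicates (58.4%, Wilson 95% interval 55.9 to 60.9), against 58.0% on the other autosomes. A further 244 (16.9%) overlapped replicate 1 alone, 100 (6.91%) replicate 2 alone and 258 (17.8%) neither. The other autosomes had 20.4%, 6.9% and 14.7% in these classes. In the centre 490 of 750 peaks were in both (65.3%, 61.9 to 68.7). In the left arm 144 of 284 were (50.7%, 44.9 to 56.5), and in the right arm 212 of 414 (51.2%, 46.4 to 56.0). The interval of the centre does not overlap those of the arms. These intervals cover counting error only, and neighbouring peaks are not independent. The same order held on the other autosomes together, with 51.7% in left arms, 63.3% in centres and 52.9% in right arms. The centre was highest on each of them, but the order of the arms differed. The left arm was above the right on II (55.3% against 51.4%) and V (54.4% against 44.4%). It was below the right on I (50% against 61.2%) and IV (50.1% against 52.6%).

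The right arm had the largest share of peaks in neither replicate. It was 25.8% (107 of 414, 21.9 to 30.3), against 15.1% to 22.2% in the right arms of I, II, IV and V. In the left arm it was 19.4% (15.2 to 24.4), inside the range of 12.9% to 21.4%, and in the centre 12.8% (10.6 to 15.4), inside the range of 11.4% to 14.3%. All of these peaks were lower-scored, with scores of at most 10.1. Among lower-scored peaks only, 45.1% of the right arm (38.9 to 51.5) were in neither, against 31.5% (28.2 to 35.1) in the right arms of the other autosomes together. The share was 33.5% in the left arm and 31.0% in the centre of III. Scores were not matched in these comparisons. On III the share in neither was 60.5% in the lowest 20% of the series-wide scores and 24.5% in the next 20%.

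**Figure D5:**
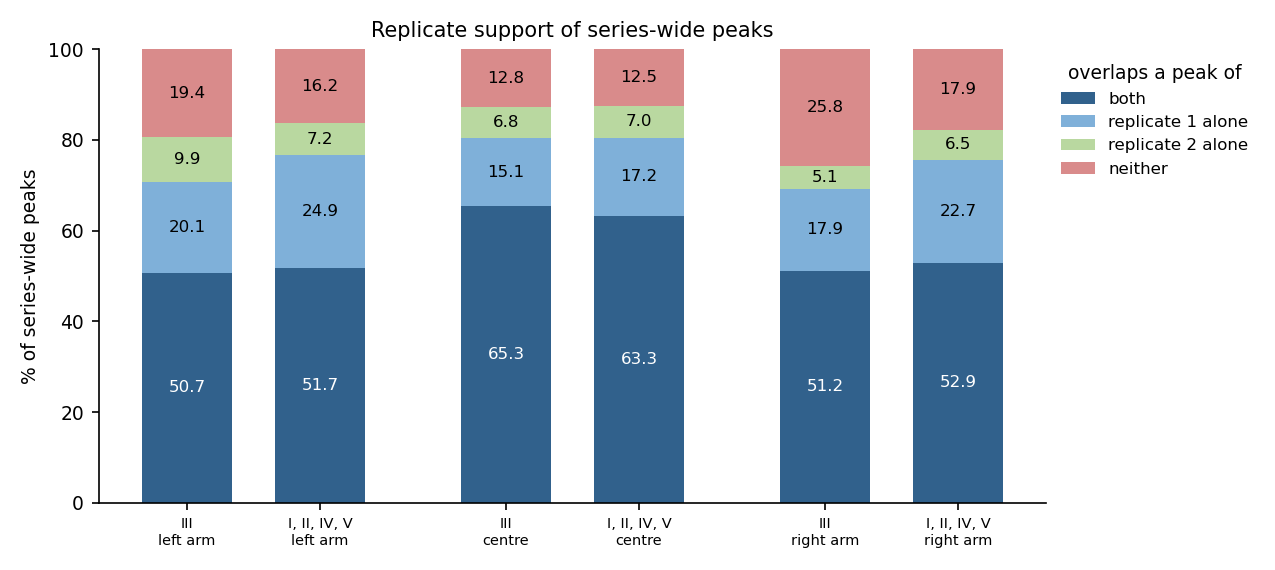
Percent of series-wide peaks (vertical axis) that overlap a peak of both replicates, of replicate 1 alone, of replicate 2 alone or of neither, for each section of chromosome III beside the same section of I, II, IV and V together. Printed values are the percentages; in the right arm 25.8% of III peaks are in neither replicate, against 17.9%.

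The share of peaks in both replicates differed by score far more than by section, on III and on the other autosomes. Among higher-scored peaks, 95% of the left arm (89.5 to 97.7), 98% of the centre (96.2 to 98.9) and 96.6% of the right arm (92.8 to 98.4) were in both replicates. Among lower-scored peaks these shares were 18.3%, 19.0% and 17.3%. The other autosomes together had 97.0%, 97.8% and 95.5% for higher-scored peaks and 16.6%, 20.0% and 20.3% for lower-scored peaks. In the lowest 20% of the series-wide scores, 5 of 306 peaks of III (1.63%) were in both, against 1.36% on the other autosomes. In the next 20% it was 49 of 282 (17.4%), against 18.4%. All 269 peaks of III between the 60th and 80th percentiles and all 327 above them were in both. How the series-wide list draws on the replicates is not stated, so this support is not an independent check of its peaks. The strongest peak found in replicate 1 alone was at 2858024 to 2858265 (score 18.0), and the strongest in replicate 2 alone at 5981545 to 5981760 (score 15.9). The strongest in neither was at 12672233 to 12672399 in the right arm (167 bp wide, score 10.1).

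Lower-scored peaks were also divided by their distance from a strong peak. On III, 248 of 711 lower-scored peaks (34.9%) lay under 2000 bp from a higher-scored peak. Of these 19.8% (15.3 to 25.2) were in both replicates, against 17.5% (14.3 to 21.2) of the 463 distant ones. The share in neither was 31.5% (26.0 to 37.5) for the close and 38.9% (34.5 to 43.4) for the distant peaks, with intervals that overlap. In the right arm 49.3% of 152 distant lower-scored peaks (41.5 to 57.2) were in neither replicate. The distant lower-scored peaks of the right arms of I, II, IV and V had 32.3% (28.4 to 36.6). Close lower-scored peaks of the right arm had 37.6% (28.1 to 48.3) on III and 29.4% (23.5 to 36.2) on the others. The right arm of III also had lower scores in both classes. Its median score was 5.045 for distant and 5.19 for close peaks, against 5.98 and 6.19 on the others. Whether the scores account for these differences was not tested. These intervals cover counting error only and are not a test, since neighbouring peaks are not independent.

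The replicates' own lists were compared directly as well. On III, 885 of 1186 peaks of replicate 1 overlapped a peak of replicate 2 (74.6%, 72.1 to 77.0), against 70.8% on the other autosomes. Of replicate 2's 1047 peaks, 917 overlapped replicate 1 (87.6%, 85.4 to 89.4), against 86.8%. For replicate 1 the share was 69.1% in the left arm, 79.3% in the centre and 69.2% in the right arm. For replicate 2 it was 82.0% in the left arm, 89.2% in the centre and 88.1% in the right arm, so replicate 2's right arm was close to its centre. Peaks missing from the other replicate were narrow, with a median of 199 bp in replicate 1 (shared ones 500 bp) and 186 bp in replicate 2 (shared ones 425 bp). The series-wide list overlapped 1148 of the 1186 replicate 1 peaks (96.8%, against 96.5% on the other autosomes) and 1031 of the 1047 replicate 2 peaks (98.5%, against 97.9%). The peaks it lacked scored at most 7.01 in replicate 1 and 5.03 in replicate 2.

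Where both replicates had a single matching peak, the midpoints lay close together. Matching peaks are peaks that overlap, which itself limits how far apart their midpoints can lie. On III their median widths were 495 bp in replicate 1 and 437.5 bp in replicate 2. Over 802 such pairs on III the midpoints differed by a median of 39.5 bp, and 84.5% of pairs were within 100 bp. The 2892 pairs of the other autosomes gave 38.5 bp and 84.9%. The share within 100 bp was 84.4% in the left arm, 86.2% in the centre and 80.6% in the right arm. Replicate 1's peak was the wider in 64.7% of pairs. Within-list score ranks had a Spearman's rho of 0.92 across the 802 pairs, 0.88 in the left arm, 0.93 in the centre and 0.92 in the right arm. These values describe peaks of the same libraries and are not tests.

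Most replicated peaks of III were simple, with 747 of 846 (88.3%) matching exactly 1 peak in each replicate. The remaining 99 took in several peaks of at least 1 replicate and had a median width of 1041 bp, against 586 bp for the simple ones. Their share was 16.0% in the left arm, 10.4% in the centre and 11.8% in the right arm. On the other autosomes these shares were 8.70%, 11.6% and 10.4%.

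The 10 highest-scored peaks of the chromosome in both replicates lay in the left arm and the centre. Of these 10, 3 lay in the left arm, 7 in the centre and 0 in the right arm. The 737 higher-scored peaks of III divided as 120, 440 and 177 in the same order, and 10 peaks are few. The 10 were 655 to 1594 bp wide and ranked 4 to 45 in the whole series-wide list. Their best matching peaks ranked 3 to 131 in replicate 1 and 3 to 145 in replicate 2. The strongest, at 1618474 to 1620067 in the left arm, scored 252 and ranked 3 in both replicates. In replicate 1 it ran from 1618469 to 1619937 and in replicate 2 from 1618536 to 1619706. The strongest of the centre, at 3867318 to 3868148, scored 231 and ranked 6 in replicate 1 and 9 in replicate 2. It closed a run of 5 peaks and was followed by a gap of 26766 bp.

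The peak at 1961725 to 1962990 in the left arm scored 214 and ranked 4 and 18 in replicates 1 and 2. The next in the centre were at 7854306 to 7855003 (score 213, ranks 8 and 11), at 3916469 to 3917147 (score 208, ranks 53 and 44) and at 5591575 to 5592384 (score 201, ranks 103 and 20). After them came centre peaks at 8446379 to 8447590, with a score of 200.1 and ranks 45 and 17, at 8043723 to 8044377 (score 199.6, ranks 22 and 145) and at 4170830 to 4171544 (score 195, ranks 131 and 58). The lowest of the 10, at 1532941 to 1534230 in the left arm, scored 189 and ranked 120 and 99. Of the 10, the peak at 8043723 differed most between the replicates in rank, followed by those at 5591575 and 4170830.

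The right arm's strongest peak, at 10758732 to 10759753, scored 181 and ranked 67 in the series-wide list, 47 in replicate 1 and 19 in replicate 2. Chromosome III supplied 22 of the 100 highest-scored nuclear peaks of the series, 6 from the left arm, 13 from the centre and 3 from the right arm. Among the 500 highest it supplied 96 (19.2%), close to its 19.3% of the whole list, with 17, 60 and 19 in these sections. All 1448 peaks of III divided as 284, 750 and 414.

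Both chromosome ends carried a peak in every list. At the left end the peak covered bases 1 to 212 in the series-wide list, 1 to 211 in replicate 1 and 1 to 210 in replicate 2, with a series-wide score of 13.3. It was followed by a gap of 25573 bp. At the right end the peak began at 13783434, 13783433 and 13783432 in the series-wide list and in replicates 1 and 2, and scored 30.1. The chromosome's length was taken from the last base of this peak. A peak ending there in at least 1 list was thus fixed in advance. The input at these ends was not analysed here.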

How the data were processed

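ChIP-seq peak lists of 2 NURF-1 ChIP replicates and a series-wide list were analysed. Per the labels' protocols, ground worms were fixed with EGS and then EGS plus formaldehyde, sonicated and immunoprecipitated. Per the file headers, peaks carry the label MACS and lie on WormBase WS220. The submitters' processing notes name BWA and ce10. Not given in the sources used here are the threshold, the control and how the replicates were combined. Peak scores were used as deposited by the authors, within each list only. The depth of each sample is unknown, and 95% Wilson intervals cover counts of peaks only.

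Overlaps (at least 1 bp), widths, gaps, runs and 100 kb windows were computed with Python 3.11.15, numpy 2.4.6, pandas 2.3.3 and scipy 1.17.1, tested on simulated lists, and plotted with matplotlib 3.10.9. Chromosome length was the last base under a peak. Peaks named are the 10 highest-scored in both replicates, the 5 widest, the highest-scored per section and per incomplete support class, the end peaks, the 5 longest gaps, the densest windows and the longest run per section; the runs with no peak in both replicates, the second 6-peak run of the left arm and the ranks of peaks between replicates were picked out after their values were seen. Alternatives changed overlap, sections, merging, score classes and lists. The members and lists were chosen with earlier results of these data known. No genome or annotation of WS220 was used here, so no peak is assigned to a gene.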

Additional observations from a re-analysis of the deposited data

How the results depend on the processing

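Depth is unknown and each list gives 1 value per section, so no result here has a test or an error from replication. "Without replicate 1" stands for replicate 2's own list and the reverse, and for support it means that the other replicate alone was asked for. Of 56 alternatives to 14 results, 10 moved a value by no more than its spread and 46 moved it further. The spread was the replicate SD, Wilson interval, or 1.5 times a count. Reversal was looked for in the density ratios only, where it occurred 0 times. Changes in the order of sections were not counted, and some are given below. The cause of the 46 larger moves was not tested.

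The centre over arms density ratio (1.07) was 1.20 with peaks under 2000 bp apart counted as 1, 1.48 for higher-scored peaks, 1.38 for peaks in both replicates and 1.18 to 1.31 in the replicates' lists. The right over left ratio (1.46) was 1.27 with 3 sections of equal length, 1.35 with close peaks counted as 1 and 1.26 to 1.37 in the replicates' lists. The ratio of III to I, II, IV and V pooled (1.37) was 1.32 to 1.39 in the replicates' lists, in both of which chromosome I alone was denser than III.

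Without peaks under 200 bp the median width was 457 bp in the left arm, 544 bp in the centre and 427 bp in the right arm, so the arms changed order. With 3 equal sections it was 348 bp on the left and 334 bp on the right. The replicates' lists gave 318 to 336 bp, 396 to 439 bp and 340 to 363 bp for left arm, centre and right arm. The median gap with peaks under 500 bp apart merged was 8045, 5668 and 4696 bp, and in the replicates' lists 7289 to 7645, 5441 to 5874 and 3983 to 6164 bp.

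With windows shifted by 50 kb the threshold was 16 peaks and 24 windows of III were dense. The centre held 14 of them, or 20.3% of its windows, and the right arm 8, or 23.5%. With a minimum of 40 kb there were 43 empty stretches. The share in both replicates, for left arm, centre and right arm, was 41.9%, 57.6% and 42.3% with an overlap of at least 200 bp, 40.1%, 54.1% and 40.1% with at least 50% of the peak overlapped, and 67.8%, 83.0% and 77.7% without the lowest 25% of scores. With 1 replicate left out it was 60.6% to 70.8%, 72.1% to 80.4% and 56.3% to 69.1%.

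No paired analysis was possible because the input samples have no peak list here.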
